A study of Homo sapiens with 6 samples.

Results

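Eph receptors of the B class and their membrane-bound ligands, the B-type ephrins, were followed in the human cell line HT29, which was established from a colorectal adenocarcinoma. The set comprised 8 genes, the receptors EPHB1, EPHB2, EPHB3, EPHB4 and EPHB6 and the ligands EFNB1, EFNB2 and EFNB3, taken by name from all genes of the array. For each gene the probe set that the platform annotation gives exactly 1 symbol was used, which named 7 of the 8 genes, each by 1 probe set, out of 18417 genes in all. No probe set was matched to EPHB2, so this receptor is not analysed here. The study hybridised RNA from 6 HT29 cultures. In 3 the cells held a control expression construct and in 3 a construct to express laminin α1, which encodes 1 of the chains that build laminins of the basement membrane, and each array of a group came from a separate culture passage grown for 7 days. The sources used here give neither the promoter and sequence of the constructs nor how many cell clones each group stands for. The 3 arrays of a group measure the spread between passages, and whether this spans independently made cell populations is not known.

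Eph receptors are receptor tyrosine kinases, and their ligands sit on the surface of neighbouring cells, so signalling needs cell contact. It runs both ways: forward into the cell with the receptor, where it acts on small GTPases, actin and adhesion, and in reverse into the cell with the ephrin-B, whose tail binds adaptor proteins. In the intestine, EPHB2 and EPHB3 are known targets of Wnt signalling at the crypt base, and B-type ephrins are higher toward the crypt top. Their mutual repulsion keeps the compartments apart and, in colorectal tumours, has been linked to the containment of tumour cells.

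In the arrays labelled laminin α1, EPHB3, the crypt receptor, fell 1.83-fold, while EPHB6, a family member whose kinase domain is inactive, rose 1.72-fold. EFNB2, which encodes the ligand ephrin-B2, rose 1.50-fold. EPHB1, EPHB4 and EFNB1 did not pass the test, and EFNB3 lay below the level at which genes were tested. Thus 2 of 6 tested members rose, 1 fell and 3 did not pass, against 5.29% of 13812 genes tested that passed in either direction. Among all genes tested 2.69% were higher and 2.59% lower. The members were chosen with earlier results of these data known, so their share is a description and not a test. Values are log2 expression, so 1 unit is a doubling, and differences are laminin α1 minus control with a threshold of 0.05 on the adjusted p of limma.

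Promoter windows of the 3 genes that changed are shown, each placed before an annotated start of transcription. Whether HT29 cells use that start, or another start of the gene, was not tested. Each window is the 250 bases before the start, 5′ to 3′ on the strand of the gene, from RefSeq on the assembly GRCh38.p14. Capitals mark GGGCGG, the GC box, on either strand (CCGCCC on the other).
EPHB3 promoter, chr3:184561535-184561784, plus strand: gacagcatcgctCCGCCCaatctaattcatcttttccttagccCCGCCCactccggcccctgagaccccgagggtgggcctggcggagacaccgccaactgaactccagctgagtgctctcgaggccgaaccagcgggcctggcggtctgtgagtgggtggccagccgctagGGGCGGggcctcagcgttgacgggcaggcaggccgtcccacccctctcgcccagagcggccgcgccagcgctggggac
EPHB6 promoter, chr7:142862506-142862755, plus strand: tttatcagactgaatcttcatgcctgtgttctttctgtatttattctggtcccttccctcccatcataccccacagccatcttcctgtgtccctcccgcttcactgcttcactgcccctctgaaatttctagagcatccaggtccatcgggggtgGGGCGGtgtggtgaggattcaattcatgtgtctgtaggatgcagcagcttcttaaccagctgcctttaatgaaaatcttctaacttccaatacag
EFNB2 promoter, chr13:106535663-106535912, minus strand: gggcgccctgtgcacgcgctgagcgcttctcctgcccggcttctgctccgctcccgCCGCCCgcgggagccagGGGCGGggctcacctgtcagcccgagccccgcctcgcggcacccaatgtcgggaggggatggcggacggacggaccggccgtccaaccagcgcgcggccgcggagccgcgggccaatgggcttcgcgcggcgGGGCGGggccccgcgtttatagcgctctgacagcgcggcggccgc
The bases G and C made up 70.0% of the EPHB3 window, 48.0% of the EPHB6 window and 78.4% of the EFNB2 window, against a median of 58% over 35116 windows of all genes. The dinucleotide CG occurred 21 times before EPHB3, 40 times before EFNB2 and 3 times before EPHB6. The GC box occurred in the windows of all 7 members with an entry in the RefSeq table, and in 46.2% of all genes with such a window. The core TCAAAG of TCF and LEF factors, the nuclear arm of Wnt signalling, was searched on both strands (CTTTGA on the other). It occurred in 0 of the 7 members and in 13.5% of all genes. With only 7 genes a count of 0 is close to that share, and other spellings of the core were not searched. TGGGAA, the core of the Notch factor RBPJ (TTCCCA on the other strand), occurred only in the window of EFNB1 among the 7, and in 24.6% of all genes. These are matches of letters within short windows and do not show binding.

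**Figure D1:**
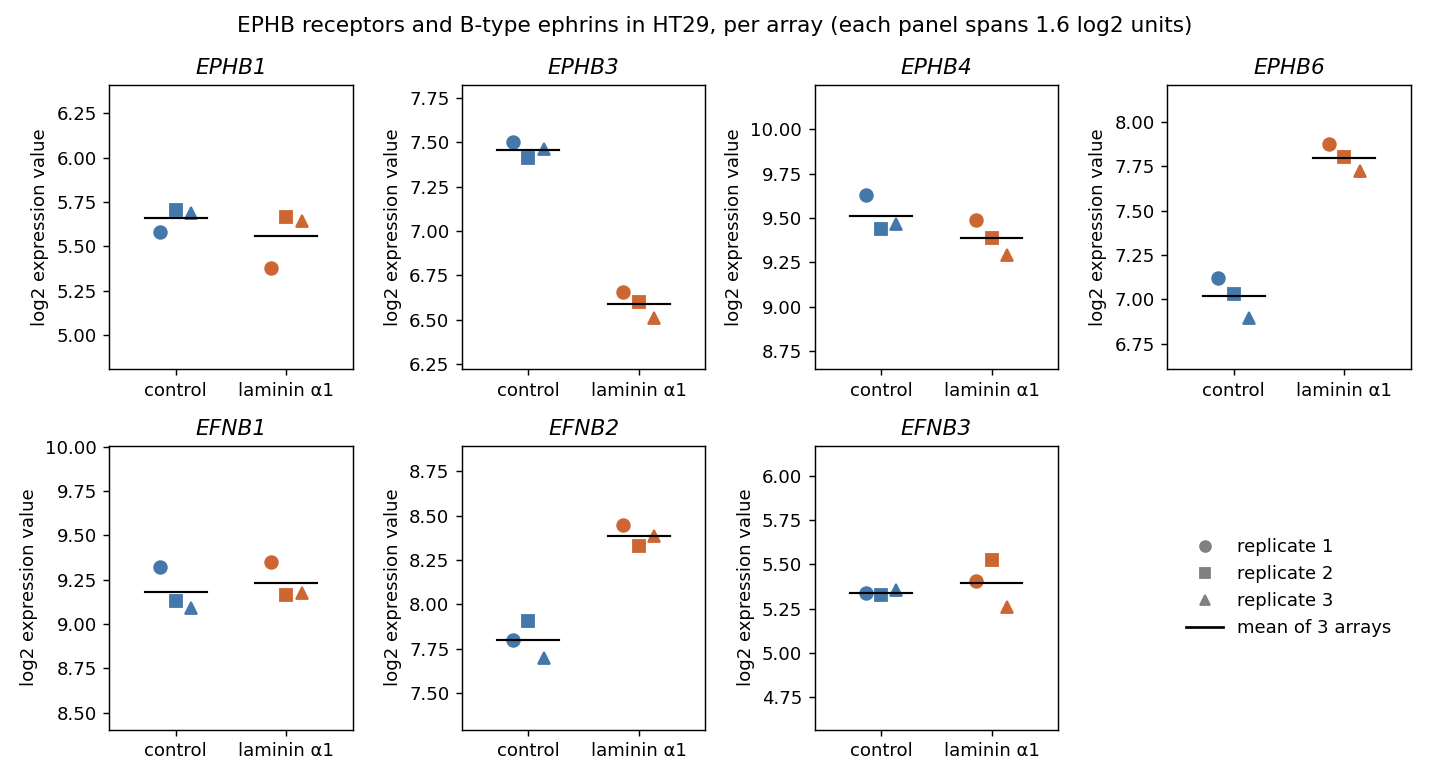
Log2 expression value (vertical axis) of each member in each of the 6 arrays, control in blue and laminin α1 in orange, with a marker shape for each replicate number and a line at the mean of 3 arrays. Every panel spans the same range; the groups are apart in EPHB3, EPHB6 and EFNB2 and overlap in the other 4 genes.

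Among the receptors, EPHB3 had values of 7.50, 7.41 and 7.46 in control replicates 1, 2 and 3 and 6.66, 6.60 and 6.51 in the laminin α1 replicates. All laminin α1 arrays lay below all control arrays, and the spread within a group was small beside the gap. The control mean was 7.46 ± 0.04 and the laminin α1 mean 6.59 ± 0.07 (SD, n = 3). The log2 difference was -0.87 (SE 0.07, 95% interval -1.02 to -0.72) with a limma adjusted p of 4.14e-05. By size of difference EPHB3 ranked 104 among the 13812 genes tested. The exact permutation p was 0.1, the smallest that 3 against 3 arrays can give.

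EPHB6 encodes a receptor that binds ephrins but lacks kinase activity, and is known to signal through partner receptors. Its values were 7.12, 7.03 and 6.90 in control and 7.87, 7.80 and 7.72 in laminin α1 arrays. The lowest laminin α1 array was higher than the highest control array. The control mean was 7.02 ± 0.11 and the laminin α1 mean 7.80 ± 0.08 (SD, n = 3). EPHB6 rose by a log2 difference of 0.78 (SE 0.08, 95% interval 0.61 to 0.95) with a limma adjusted p of 0.000210. EPHB6 ranked 137 by size, so EPHB3 and EPHB6 were both among the larger differences of the array and had opposite signs.

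EPHB4, the receptor for which ephrin-B2 is the preferred ligand and a marker of veins, had values of 9.63, 9.44 and 9.47 in control and 9.49, 9.39 and 9.29 in laminin α1 arrays. The groups overlapped. The difference was -0.12 (95% interval -0.30 to 0.05, limma adjusted p = 0.510). EPHB1, best known in the nervous system, had values of 5.58, 5.71 and 5.69 in control and 5.38, 5.66 and 5.64 in laminin α1 arrays. Its signal lay close to the level below which genes were not tested, log2 5.50, and the groups overlapped. The difference was -0.10 (95% interval -0.29 to 0.10, limma adjusted p = 0.657). Without laminin α1 replicate 1 it was -0.0053, and the difference of EPHB4 ran from -0.17 to -0.06 with 1 array left out. For both receptors the interval leaves out a change as large as that of EPHB3.

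Among the ligands, EFNB2 had values of 7.80, 7.91 and 7.70 in control and 8.45, 8.33 and 8.38 in laminin α1 arrays. Ephrin-B2 is the transmembrane ligand that marks arteries and is known as a partner of EPHB4. Again all laminin α1 arrays lay above all control arrays. The control mean was 7.80 ± 0.11 and the laminin α1 mean 8.39 ± 0.06 (SD, n = 3). EFNB2 rose by a log2 difference of 0.59 (SE 0.07, 95% interval 0.42 to 0.75) with a limma adjusted p of 0.00107. EFNB2 ranked 235 by size of difference.

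EFNB1, which encodes ephrin-B1, had values of 9.32, 9.13 and 9.09 in control and 9.35, 9.16 and 9.18 in laminin α1 arrays. The groups overlapped nearly in full, and replicate 1 was the highest in both. The difference was 0.05 (95% interval -0.14 to 0.24, limma adjusted p = 0.837), and it was -0.0096 without laminin α1 replicate 1. EFNB3, which encodes ephrin-B3, a ligand best known in the nervous system, had values of 5.34, 5.33 and 5.36 in control and 5.40, 5.53 and 5.26 in laminin α1 arrays. The control arrays lay within the range of the laminin α1 arrays, and the mean over all 6 was below the level filter of 5.50. In the limma fit without that filter, the difference was 0.06 (95% interval -0.11 to 0.22, adjusted p = 0.815), and 4.21% of genes passed in that fit.

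**Figure D2:**
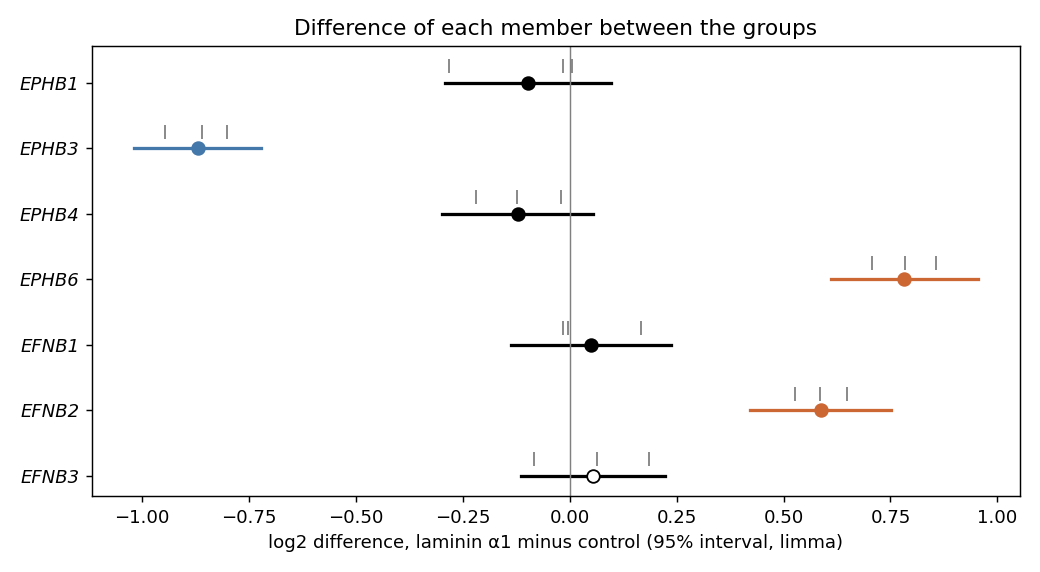
Log2 difference of each member, laminin α1 minus control (horizontal axis), with the 95% interval from limma; grey ticks are the 3 laminin α1 arrays against the control mean. EPHB3 lies at -0.87, EPHB6 at 0.78 and EFNB2 at 0.59, the intervals of the other 4 genes include 0, and the open point (EFNB3) is from the fit without the level filter.

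In all, the groups did not overlap for 3 of the 6 tested members, against 21.6% of all genes tested. This too is a description, as the members were chosen with earlier results known. They overlapped for EFNB3, which was not tested. Leaving out each array in turn kept the difference of EPHB3 between -0.90 and -0.83, of EPHB6 between 0.72 and 0.84 and of EFNB2 between 0.53 and 0.64. The highest limma adjusted p of these fits were 0.000571, 0.00215 and 0.00773.

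Whether members of 1 subfamily changed unequally was tested within arrays, by subtracting the log2 value of one gene from that of the other. EPHB3 minus EPHB6 differed by -1.65 on the log2 scale between the groups, with laminin α1 arrays at -1.66, -1.64 and -1.65 against the control mean and control arrays at -0.06, -0.06 and 0.12. EPHB3 minus EPHB4 differed by -0.75 between the groups and EPHB3 minus EPHB1 by -0.77. EFNB2 minus EFNB1 differed by 0.54 and EFNB2 minus EFNB3 by 0.53. In these 5 pairs no laminin α1 array lay within the range of the control arrays. Every pair held EPHB3 or EFNB2, which separated the groups by themselves, so this separation is not independent of that result. Each exact two-sided permutation p was 0.1, also after adjustment over the 5 pairs. Since 0.1 is the smallest p of 3 against 3 arrays, the threshold of 0.05 could not be reached. The gap between EPHB3 and EPHB6 had the tightest laminin α1 values, with an SD of 0.0072 over the 3 arrays.

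The genes with the most similar pattern were sought among all genes tested, by the root mean square distance of log2 values centred on the gene's mean over the 6 arrays. Nearest to EPHB3 were TFDP2, a partner of E2F factors (distance 0.0587, difference -0.77), SERPINE2, a protease inhibitor (0.0712, difference -0.96), and MAOA, a monoamine oxidase (0.0720, difference -0.82). Nearest to EPHB6 were WNT11, a secreted Wnt ligand (distance 0.0449, difference 0.80), DAPK1, a death-associated kinase (0.0462, difference 0.78), and GMFG, a regulator of actin branching (0.0474, difference 0.69). Nearest to EFNB2 were HERC6, an interferon-induced gene of the HERC family (distance 0.0323, difference 0.57), MIR31HG, a long non-coding RNA (0.0597, difference 0.61), and STC1, a secreted glycoprotein hormone (0.0603, difference 0.54). All 9 genes passed the limma test, with adjusted p between 3.13e-05 and 0.00105. The distance is a description, since any gene with a difference of similar size and small spread lies near a member.

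In the other branch of the family no gene passed the test. Of 14 EPHA receptors and A-type ephrins, all on the array, 10 were tested. By the limma test 0 rose and 0 fell, against 5.29% of all genes tested that passed. With only 10 genes tested, a count of 0 is close to that share. The median difference was -0.05 against -0.01 over all genes tested. EPHA2, a receptor of epithelial cells, had a control mean of 9.25 ± 0.09 and a laminin α1 mean of 9.45 ± 0.11 (SD, n = 3), with a limma adjusted p of 0.229. EPHA10, a receptor without an active kinase, had a difference of 0.16 (limma adjusted p = 0.353), or 0.03 over the mean of its 2 probe sets, and EFNA2 one of -0.14 (limma adjusted p = 0.394). The differences of EPHA1, EFNA1 and EFNA4 were -0.08, -0.07 and -0.06. EPHA3, EPHA5, EPHA6 and EPHA7 lay below the level filter in both groups.

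Among genes of forward signalling, which link an activated EphB receptor to GTPases and actin, 0 of 36 tested rose and 3 fell (8.33%, against 5.29% of all genes), with a median difference of -0.02. This list and those below were chosen with earlier results of these data known, so their shares are descriptions and not tests. GRB10, an adaptor that binds receptor tyrosine kinases, had values of 7.30, 6.91 and 6.80 in control and 6.36, 6.09 and 6.17 in laminin α1 arrays. It fell by 0.80 on the log2 scale (limma adjusted p = 0.00409). AFDN, the junction protein afadin, which binds Eph receptors through its PDZ domain, fell by 0.31 (limma adjusted p = 0.0327), and ABL1, a non-receptor kinase, by 0.38 (limma adjusted p = 0.0452). The call of AFDN was lost when any array but laminin α1 replicate 3 was left out, with adjusted p up to 0.173. That of ABL1 was lost when any array but laminin α1 replicate 1 was left out, with adjusted p up to 0.200, and also without a level filter or with arrays centred on their medians (adjusted p = 0.0503 and 0.0627). PIK3R1, a regulatory subunit of PI3 kinase, had a difference of 0.38, FYN, a SRC family kinase, 0.20, and KALRN, a guanine nucleotide exchange factor, -0.28, with limma adjusted p of 0.128, 0.179 and 0.0668. Each passed with 1 array left out: PIK3R1 without laminin α1 replicate 1 (adjusted p = 0.0288), FYN without laminin α1 replicate 3 (adjusted p = 0.0390) and KALRN without control replicate 3 (adjusted p = 0.0362).

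Among genes of reverse signalling and shedding, which act on the ephrin-B side, 3 of 28 tested rose and 0 fell (10.7%, against 5.29% of all genes), with a median difference of 0.0087. GRIP1, a PDZ scaffold that binds the tail of ephrin-B proteins, had values of 5.82, 5.36 and 5.37 in control and 6.69, 6.58 and 6.72 in laminin α1 arrays. It rose by 1.15 on the log2 scale, or 2.21-fold (SE 0.11, limma adjusted p = 0.000235), although the control mean of 5.52 was close to the level filter, where signal is low. RHBDL2, a rhomboid protease able to cut B-type ephrins, went from 7.78 ± 0.05 to 8.14 ± 0.08 (SD, n = 3), a rise of 0.37 (limma adjusted p = 0.0114). ADAM8, a metalloprotease, rose by 0.38 (limma adjusted p = 0.0102). The call of RHBDL2 was lost without control replicate 1, control replicate 2 or laminin α1 replicate 2 (adjusted p = 0.0508, 0.0792 and 0.0634), and that of ADAM8 without control replicate 2 (adjusted p = 0.0621). ZHX2, a nuclear repressor known to bind ephrin-B1, had a difference of -0.35, the phosphatase PTPN11 of -0.22 and STAT3 of 0.16, none of which passed (limma adjusted p = 0.0927, 0.221 and 0.336). ZHX2 passed without laminin α1 replicate 1 (adjusted p = 0.0283) and PTPN11 without laminin α1 replicate 3 (adjusted p = 0.0202).

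**Figure D3:**
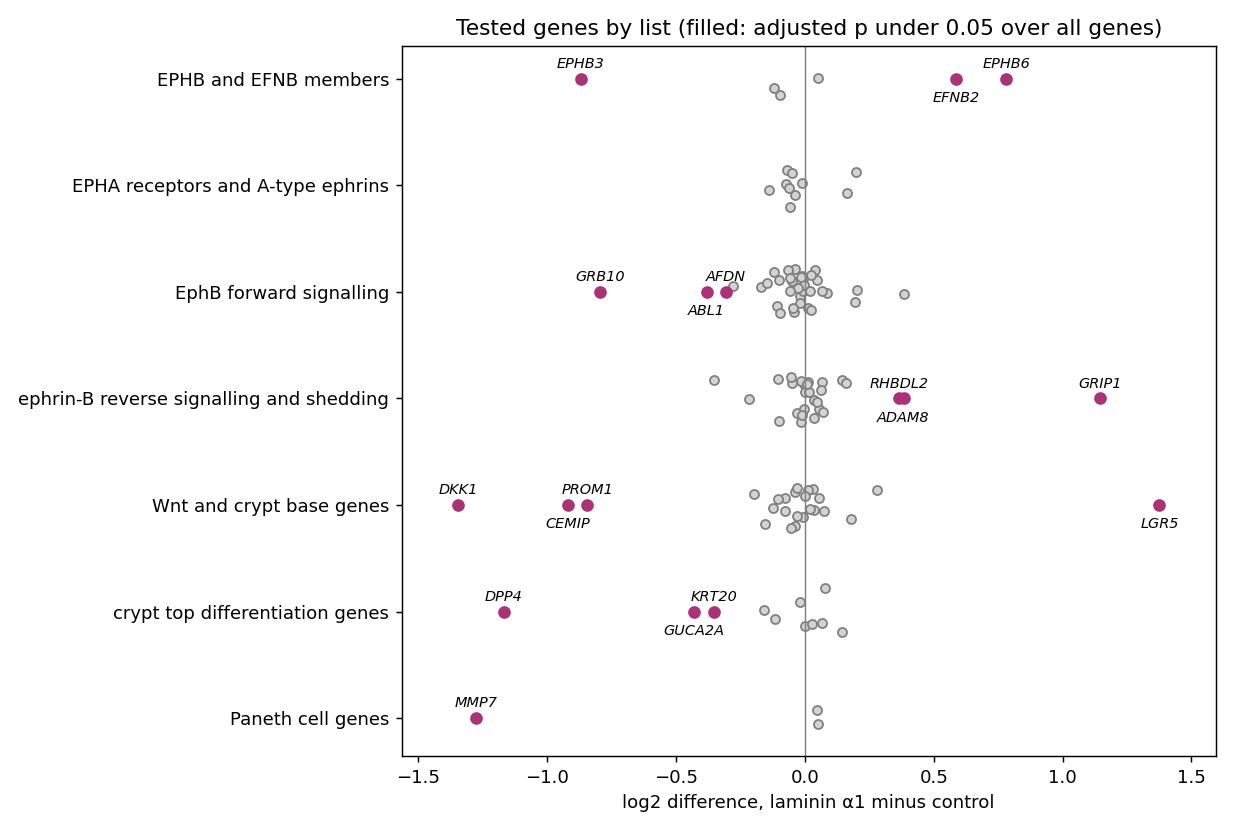
Log2 difference, laminin α1 minus control (horizontal axis), of every tested member and of every tested gene of the 6 lists, 1 point per gene; filled and named points have a limma adjusted p under 0.05. Most points of the 6 lists lie near 0. Single genes lie apart, furthest LGR5 at 1.38 and DKK1 at -1.35, and in the signalling lists GRIP1 at 1.15 and GRB10 at -0.80.

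Wnt and crypt base genes, the group that EPHB3 belongs to by its known regulation, moved both ways, with 1 of 25 tested higher and 3 lower (16.0%, against 5.29% of all genes) and a median of -0.03. LGR5, the stem cell receptor for R-spondins, rose by 1.38, opposite to EPHB3. DKK1, a Wnt inhibitor, fell by 1.35, CEMIP, a hyaluronan-binding protein, by 0.92 and PROM1, a membrane glycoprotein, by 0.85, with limma adjusted p between 5.9e-05 and 0.00274. AXIN2, a feedback gene of Wnt signalling, had values of 7.88, 7.80 and 7.75 in control and 8.02, 8.01 and 7.94 in laminin α1 arrays, a difference of 0.18 (limma adjusted p = 0.185). ZNRF3, a ligase that removes Wnt receptors, had a difference of 0.28 (limma adjusted p = 0.112).

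Of 11 tested genes of the crypt top, where B-type ephrins are known to be high, 0 rose and 3 fell (27.3%, against 5.29% of all genes), with a median of -0.02. This list too was chosen with earlier results known, which can raise its share. DPP4, a brush border peptidase, fell by 1.17, GUCA2A, the precursor of guanylin, by 0.43 and KRT20, a keratin of mature cells, by 0.35 (limma adjusted p = 1.5e-05, 0.0205 and 0.00863). The call of GUCA2A was lost without control replicate 1 or 2 (adjusted p = 0.0911 and 0.0953) and that of KRT20 without control replicate 2 or laminin α1 replicate 2 (adjusted p = 0.0628 and 0.0599). CEACAM1, ANPEP and ALPI did not pass, with differences of 0.14, -0.16 and -0.12. CEACAM7 lay below the level filter and is not in these counts. In the limma fit without that filter it rose by 0.38 (adjusted p = 0.00670), while CA1, SLC26A3 and MS4A12, also below the filter, did not pass. Of Paneth cell genes, a lineage that EPHB3 is known to hold at the crypt base, 3 of 8 on the array were tested. MMP7, a matrix metalloproteinase, fell by 1.28, while LYZ and PLA2G2A had differences of 0.05 each and did not pass, and the median of the 3 was 0.05. The defensins DEFA5 and DEFA6, which define the lineage, lay below the level filter in both groups.

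The neighbours of each tested member in gene order, 5 tested genes on either side, were compared with it. Beside EFNB2 on chromosome 13, 9 of 10 neighbours had a positive difference, against 6304 of all 13812 genes tested. The median of the 10 was 0.14, against -0.01 over all genes tested, and the range -0.05 to 0.31. ARGLU1, a splicing regulator and the next tested gene, rose by 0.31 and IRS2, an insulin receptor substrate, by 0.30 (limma adjusted p = 0.0406 and 0.0246). Both differences were smaller than the 0.59 of EFNB2. The call of ARGLU1 was lost when any array but laminin α1 replicate 1 was left out (adjusted p up to 0.147). That of IRS2 was lost without control replicate 1, 2 or 3 or laminin α1 replicate 2 (adjusted p up to 0.139). The part of this neighbourhood in the rise of EFNB2 was not tested.

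Beside EPHB3 on chromosome 3, 1 of 10 neighbours passed, MAP3K13, a kinase of the JNK pathway, which fell by 0.30 (limma adjusted p = 0.0348). That call was lost without control replicate 1, 2 or 3 or laminin α1 replicate 2 (adjusted p up to 0.174) and with arrays centred on their medians (adjusted p = 0.0531). The median of the 10 was -0.05 and the lowest -0.30, so no neighbour came near the -0.87 of EPHB3. Beside EPHB6 on chromosome 7, MGAM2, of the maltase-glucoamylase family, fell by 0.49 and PRSS1, a trypsinogen with close copies that could share its probes, rose by 0.47, while the median was -0.06. The call of MGAM2 was lost without control replicate 1 or 3 or laminin α1 replicate 1 or 2 (adjusted p up to 0.0835), and that of PRSS1 without control replicate 2 or 3 or laminin α1 replicate 1 or 2 (adjusted p up to 0.0999). MSN, the membrane-actin linker moesin, rose by 0.52 near EFNB1, and MUC3A, a membrane mucin with close copies, fell by 0.44 near EPHB4 (limma adjusted p = 0.00128 and 0.00468). Over the 6 tested members, 7 of 60 neighbours passed, or 11.7%, against 5.29% of all genes tested, and EPHB1 had 0 of 10.

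**Figure D4:**
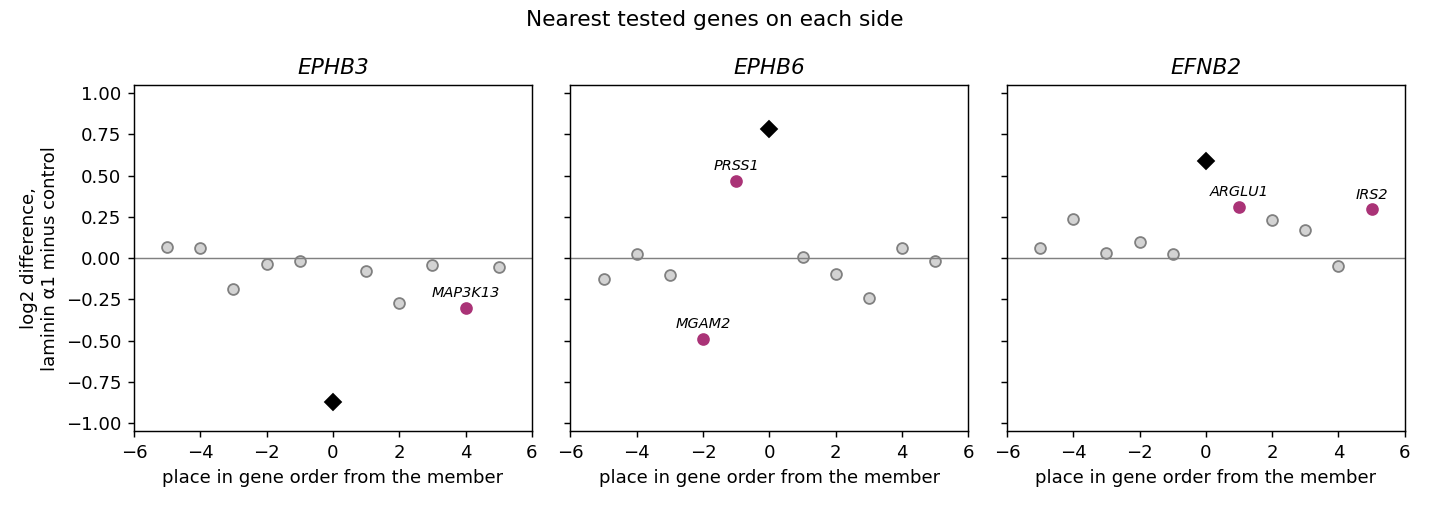
Log2 difference, laminin α1 minus control (vertical axis), of the 5 nearest tested genes on each side (circles, by place in gene order) of EPHB3, EPHB6 and EFNB2 (black diamonds at place 0). Filled circles passed the limma test. Above 0 lie 9 of 10 circles around EFNB2, 2 of 10 around EPHB3 and 4 of 10 around EPHB6. Over all genes tested 6304 of 13812 differences were positive.

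Facts of the whole series bear on these values in a few ways. LAMA1, the gene of the laminin α1 chain, had values of 5.71, 5.63 and 5.60 in control and 5.79, 5.72 and 5.71 in laminin α1 arrays and did not pass (difference 0.09, limma adjusted p = 0.535). Whether its probes match the construct is not stated, so it does not check the labels. Array medians lay between 6.45 and 6.49. Of the markers of colon epithelium, 9 of 9 were above the level filter on average, with a list mean per array of 10.0 to 10.1 in control and 9.87 to 9.89 in laminin α1 arrays, and CDH17 alone passed, with a difference of -1.65, to a mean below the level filter, so it was tested through its control values. The median difference of the 9 was -0.0011. As EFNB2 and EPHB4 are also vessel genes, endothelial markers were checked. Of 8, 3 were tested and 0 passed, PECAM1, KDR, TEK, VWF and EMCN lay below the filter, and the summed linear signal was 408 to 434 in control and 398 to 418 in laminin α1 arrays. Likewise 0 of 4 tested fibroblast, 0 of 2 blood cell and 0 of 1 neuronal markers passed. With so few markers tested, counts of 0 are close to the 5.29% of all genes tested that passed. In such bulk RNA, fewer cells with a transcript and less of it per cell cannot be told apart. Without control replicate 2 the number of genes past the threshold fell from 730 to 407 and without laminin α1 replicate 2 to 429, and it was 1214 without laminin α1 replicate 3; the calls of EPHB3, EPHB6 and EFNB2 were present in each of these fits.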

How the data were processed

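The authors deposited log2 expression values per probe set, and the submitters' processing notes name RMA and version 1.1 of Affymetrix Expression Console. RMA gives all arrays nearly the same distribution, which hides any shift shared by all genes. The sources used here name no genome build. The labels name the dye Cy3, and the table was treated as 1 channel. Of 33297 probe sets, the platform annotation gave 1 symbol to 19460, several to 1754 and none to 12083. The brightest was taken per gene.

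The 13812 genes with a mean above the 25th percentile, log2 5.50, entered a fit on the group alone with limma 3.58.1 under R 4.3.3 (lmFit, then eBayes), adjusted by Benjamini-Hochberg. All adjusted p values are from limma. The fit was tested on simulated data. Arrays limit precision by their number, 3 per group. Members and lists were chosen with earlier results of these data known. Named were all members, up to 6 genes per list with the smallest p, the 3 genes nearest in pattern to each called member, and called neighbours. Gene order and promoters came from RefSeq (GRCh38.p14). Alternatives were other filters, probe set rules, scalings and variance models, a replicate block, and each array left out.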

Additional observations from a re-analysis of the deposited data

How the results depend on the processing

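EPHB3, EPHB6 and EFNB2 kept their direction and their limma call in every alternative in which they were tested; the highest adjusted p were 0.000693, 0.00302 and 0.00836, each with all probe sets tested separately. With the filter at the 50th percentile 0 members were lower, since EPHB3 lies below that level and was not tested there. EPHB1, at -0.15 to -0.0053 with 1 array left out, and EPHB4, at -0.17 to -0.06, kept their sign without a call. EFNB1 reversed to -0.0096 without laminin α1 replicate 1 in a range up to 0.12, never called. Of 13812 genes tested, 730 passed the threshold in the main fit, 4691 with array weights and 1596 with the replicate block. With 1 array left out the number was 407 to 1214. The array weights did not converge to tolerance in limma. Same-numbered arrays of the groups had deviations that correlated at 0.39, 0.02 and 0.53, and control replicate 2 correlated best with laminin α1 replicate 1 (0.14). These values do not settle whether the numbers pair the samples, since the 3 deviations from a group mean sum to 0. The list counts of these 2 fits have to be read against 4691 and 1596 of all 13812 genes tested. Array weights gave 2 higher and 1 lower among EPHA and EFNA genes, and 3 higher and 7 lower in forward signalling. They also gave 2 lower in reverse signalling, 3 higher among Wnt genes and 1 higher at the crypt top. The replicate block gave 1 higher and 4 lower in forward signalling, 1 lower in reverse signalling and 2 higher among Wnt genes. Of the named genes not otherwise past the threshold it called PIK3R1, KALRN, ZHX2 and ZNRF3 (adjusted p = 0.0264, 0.0158, 0.00595 and 0.0215). All probe sets tested separately gave 1 lower in forward signalling and 1 higher at the crypt top, and no filter also gave 1 higher at the crypt top. CEACAM7, which lies below the level filter, is tested in both (adjusted p = 0.00670 without filter). With all probe sets tested separately the calls of ABL1, AFDN, GUCA2A, MAP3K13, MGAM2, PRSS1, ARGLU1 and IRS2 were lost. With 1 array left out, counts ran from 0 to 1 higher and 1 to 2 lower in forward signalling, 1 to 3 higher and 0 to 1 lower in reverse signalling, and 1 to 3 lower at the crypt top. Of the named genes not otherwise past the threshold, array weights called EPHA2, EPHA10, EFNA2, FYN, KALRN, PIK3R1, ZHX2, PTPN11, AXIN2, ZNRF3, CEACAM1 and ALPI (adjusted p up to 0.0347). Where no reason is stated, the cause was not tested. Signal near the level filter limits EPHB1, EFNB3 and GRIP1.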
